A study of Mus musculus with 7 samples.

Results

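The genes described here are the PDGF receptors Pdgfra and Pdgfrb and the PDGF ligands Pdgfa, Pdgfb and Pdgfc, 5 of the 32285 genes in the count tables, taken by symbol. They were followed through 53875 single cells of the mouse neural crest lineage, in which Wnt1-Cre switches on EGFP from the ROSA locus, so that crest cells and the dorsal neural tube carry the label. The 7 libraries were pools of embryos of a mixed Swiss-Webster background: controls of E8.5 (1 library), E9.5 (1) and E10.5 (2), and embryos titled Tbx1 null of E9.5 (1) and E10.5 (2). All libraries shared Wnt1-Cre and the ROSA-EGFP reporter. The genotype field of the Tbx1 libraries reads Wnt1-Cre/+;Tbx1+/-;ROSA-EGFPf/+, which does not match their titles or the study's own description of null embryos, and the groups follow the titles. Tbx1 UMIs (unique molecular identifiers, counts of captured transcripts) were present in every library, at 0.555 to 5.92 CPM (UMIs scaled to a fixed library total) in controls and at 0.535 to 2.96 CPM in Tbx1 null libraries. The labels do not say which part of the gene is deleted, so these counts do not check the genotype. Tbx1 acts mainly in cells next to the crest rather than in crest cells. The dissected tissue changed with stage: the anterior part of the embryo at E8.5, the pharyngeal apparatus with the first arch, heart and neural tube at E9.5, and arches 2 to 6 with the heart and neural tube at E10.5. Stage and dissection therefore cannot be told apart, and neither can genotype and reagent version at E9.5 (3.1 in the control, 3 in the Tbx1 null library). The E8.5 library alone was made with reagent version 2, so its differences from later stages cannot be told apart from that version either.

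PDGF receptors are receptor tyrosine kinases that dimerise on binding a dimeric ligand and signal through PI3K, PLC-gamma, Src and MAPK. PDGFRA binds PDGF-A, PDGF-B and PDGF-C, whereas PDGFRB binds mainly PDGF-B and PDGF-D. PDGF-C is secreted in a latent form and cut by proteases such as tissue plasminogen activator (Plat). In the embryo the ligands are typically made by epithelium, neural tissue or endothelium and the receptors by adjoining mesenchyme. PDGFRA is required in cranial neural crest for the facial skeleton, and PDGFRB is best known in pericytes and vascular smooth muscle.

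The 250 bases before the start of Pdgfra and Pdgfc are shown because these were the members called higher at E10.5 than at E9.5 in mesenchymal cells. Sequence, build (GRCm38.p6) and start sites are from RefSeq, 5′ to 3′ on the gene's strand, with capitals marking matches to the E-box CANNTG, the letters bound by basic helix-loop-helix factors such as Twist1 (the motif reads the same on both strands). The Pdgfra window lies at chr5:75152001-75152250 and the Pdgfc window at chr3:81036166-81036415, both on the plus strand and upstream of the first exon.
Pdgfra: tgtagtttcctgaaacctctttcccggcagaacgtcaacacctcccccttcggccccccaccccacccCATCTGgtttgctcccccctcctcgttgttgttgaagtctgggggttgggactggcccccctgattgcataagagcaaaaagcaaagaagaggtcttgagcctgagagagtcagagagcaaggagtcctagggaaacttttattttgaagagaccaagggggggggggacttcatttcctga
Pdgfc: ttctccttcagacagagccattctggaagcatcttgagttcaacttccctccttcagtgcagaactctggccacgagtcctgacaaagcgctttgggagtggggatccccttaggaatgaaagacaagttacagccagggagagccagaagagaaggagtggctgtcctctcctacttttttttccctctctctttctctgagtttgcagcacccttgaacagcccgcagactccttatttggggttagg
The Pdgfra window held 1 E-box match and the Pdgfc window 0, and 66.2% of the windows of this length before 32851 promoters held at least 1. Neither held CCAAT or TATAAA on either strand, which were found in 33.8% and 12.4% of the windows. In GENCODE on GRCm38 Pdgfra spans chr5:75152292-75198215 (+), Pdgfa chr5:138976014-138997370 (-), Pdgfb chr15:79995874-80014977 (-) and Pdgfc chr3:81036416-81214040 (+).

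Cells were classed by genes that are not members. Mesenchymal cells had at least 2 UMIs of Twist1, Prrx1 and Prrx2 together (30857 cells). They were divided into cells with at least 10 UMIs of the smooth muscle genes Acta2 and Tagln (576), cells with Foxf1, a transcription factor gene of splanchnic and pharyngeal mesenchyme (2940), and other mesenchymal cells (27341). The rest were Sox10 cells (at least 2 UMIs of Sox10, a marker of migrating crest and glia; 3701), neural cells (at least 2 UMIs of Sox1, Sox2, Sox3, Elavl3 and Elavl4; 17013) and 2304 unassigned cells. Marker genes that the gates did not use were read as a check: Col1a1, Col3a1 and Snai2 summed to 3.77 CPM in mesenchymal cells of E8.5, against 1.03 CPM in Sox10 and 0.876 CPM in neural cells. They summed to 51.4 to 284 CPM in mesenchymal cells of the later libraries, against 1.90 to 30.6 CPM in Sox10 and neural cells. The smooth muscle genes Myh11, Cnn1 and Myl9 summed to 440 to 1044 CPM in Acta2/Tagln cells and to 13.1 to 34.8 CPM in other mesenchymal cells. Myh11 was at 0 in the control E9.5 and the first Tbx1 null E10.5 library. The Acta2/Tagln cells of 3 libraries also held cardiomyocyte transcripts (1008 and 2407 CPM at E9.5 in control and Tbx1 null, 1059 CPM in the first E10.5 control; 13.1 to 118 CPM elsewhere). At E8.5, 1687 of the 2788 mesenchymal cells also had at least 2 Sox10 UMIs, so that the E8.5 class is a mixed one.

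The mesenchymal gate did not take the same cells from both genotypes at E10.5. Cells that only just passed it, with 2 or 3 UMIs, made up 434 of 3361 and 535 of 6741 cells in the controls but 695 of 3209 and 797 of 2219 in the Tbx1 null libraries. A list of 5 neuron genes summed to 78.5 and 38.7 CPM in control mesenchymal cells and to 140 and 807 CPM in Tbx1 null ones. Results are therefore given beside a strict gate, set after the data were seen, that required at least 4 mesenchymal UMIs and under 2 Sox10 and neural gate UMIs, and which brought the neuron list to 25 and 21.1 CPM in controls and 20.9 and 139 CPM in Tbx1 null cells. Elavl3 and Elavl4 are in that list and in the strict gate. The other 3 genes (Tubb3, Stmn2 and Nhlh1) went from 63.9 and 30.4 CPM to 22.0 and 17.3 CPM in controls and from 116 and 666 CPM to 17.9 and 128 CPM in Tbx1 null cells. For strict values in the other classes, Sox10 cells needed at least 4 Sox10 UMIs and under 2 UMIs of Elavl3 and Elavl4 together. Neural cells needed at least 4 UMIs of the neural gate genes. Libraries held 5593 to 9621 cells with median depths of 14906 to 22852 UMIs, and any pair of libraries shared at most 44 cell barcodes and at most 0.41% of the smaller library's.

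The receptors were mesenchymal genes. Pdgfra and Pdgfrb were lower in Sox10 and in neural cells than in mesenchymal cells in each of the 7 libraries. Calls below are from edgeR at an adjusted p under 0.05, and p-values measure only the spread between these pools of embryos. In mesenchymal cells Pdgfra stood at 10.8 CPM in the E8.5 control, 25.2 and 25.9 CPM in the E9.5 control and Tbx1 null libraries, 63.8 and 78.2 CPM in the E10.5 controls and 54.0 and 50.2 CPM in the E10.5 Tbx1 null libraries. In Sox10 cells it was at 8.09 CPM at E8.5 and at 0.310 to 1.82 CPM in the 6 later libraries, and in neural cells it was at 0.940 to 2.48 CPM throughout. Sox10 cells of E8.5 thus held a Pdgfra level near that of the mesenchymal cells of the same library, and the later ones did not. Compared within the 6 libraries of E9.5 and E10.5, with the library as a block, Pdgfra was lower in Sox10 than in mesenchymal cells by a log2 fold change of -5.78 ± 0.33 (SE; adjusted p = 1.5e-05, edgeR quasi-likelihood test) and lower in neural cells by -4.87 ± 0.40 (adjusted p = 0.00011). The strict gate gave -6.32 ± 0.28 and -5.38 ± 0.43.

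Pdgfrb was also highest in mesenchymal cells. Its level in mesenchymal cells was 5.66 CPM at E8.5, 20.3 and 20.4 CPM at E9.5 (control, Tbx1 null), 38.8 and 40.1 CPM in the E10.5 controls and 34.3 and 33.9 CPM in the E10.5 Tbx1 null libraries. In Sox10 cells it lay between 1.31 and 1.88 CPM and in neural cells between 0.660 and 2.25 CPM, with no overlap with mesenchymal cells. The difference from mesenchymal cells was -4.32 ± 0.14 in Sox10 cells (adjusted p = 2.4e-06) and -4.83 ± 0.29 in neural cells (adjusted p = 3.4e-05), or -4.90 ± 0.17 and -5.23 ± 0.21 with the strict gate. After each cell was thinned to 5000 UMIs, Pdgfra was detected in 25.7% and 29.7% of the E10.5 control mesenchymal cells and in 0.597% and 0.912% of the neural cells of the same libraries. Median depths before thinning were 22722 and 16439 UMIs in the mesenchymal and 15271 and 9365 UMIs in the neural class. Without thinning the median share of mesenchymal cells with a Pdgfra UMI over the 7 libraries was 45.1%, against 19.7% after it. Read against the whole transcriptome, 4786 of 14053 genes (34.1%) differed between Sox10 and mesenchymal cells and 7700 of 15101 (51%) between neural and mesenchymal cells, so that being called lower is by itself common among all genes (19% and 26.6%).

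**Figure D1:**
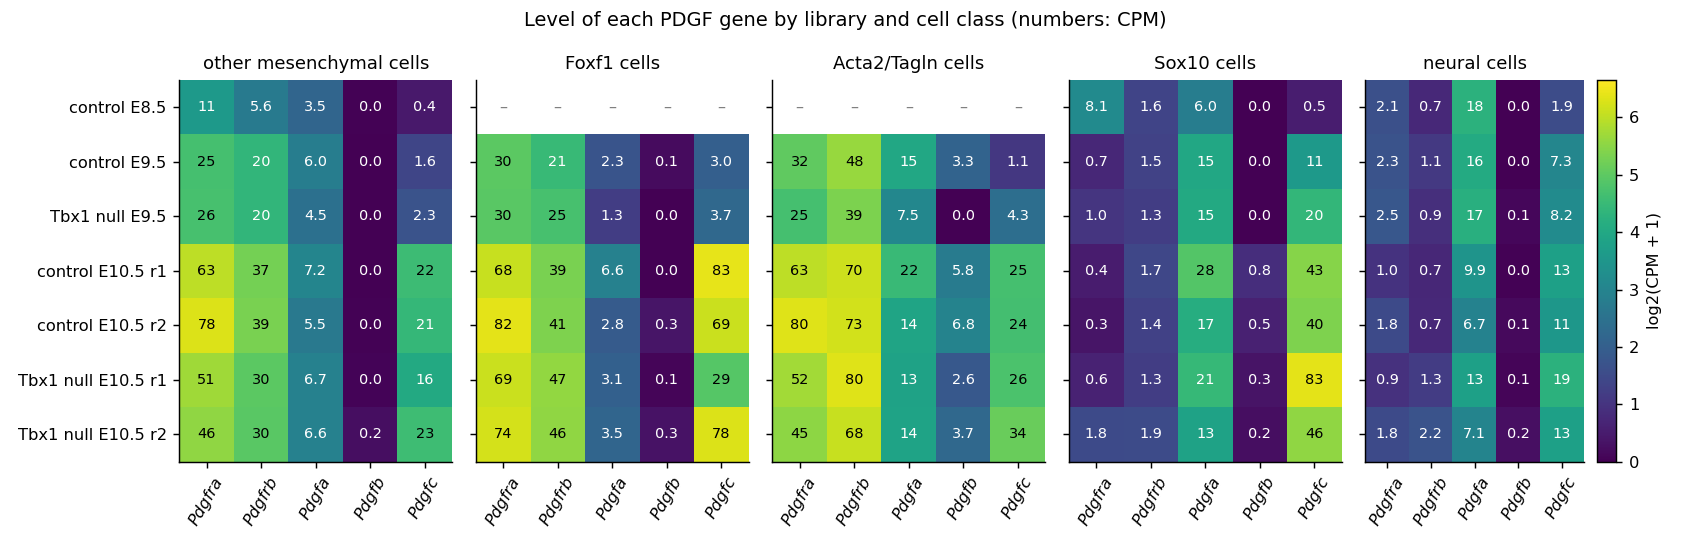
Level of each PDGF gene in CPM (numbers) by library (rows) and cell class (panels), coloured on a log2(CPM + 1) scale; dashes mark classes with fewer than 50 cells. Pdgfra and Pdgfrb are high in the 3 mesenchymal panels and low in Sox10 and neural cells from E9.5 on, while Pdgfa and Pdgfc are also high in Sox10 cells.

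The ligands Pdgfa and Pdgfc were higher in Sox10 cells than in mesenchymal cells as a whole in 7 of 7 libraries. Foxf1 cells held more Pdgfc than Sox10 cells in both E10.5 controls (83.4 and 68.6 against 42.6 and 40.3 CPM). They also did in the second E10.5 Tbx1 null library (77.6 against 46.2 CPM), but not in the first or at E9.5. For Pdgfa, Acta2/Tagln cells were slightly above Sox10 cells in the E9.5 control (15.0 against 14.8 CPM). The second E10.5 Tbx1 null library did the same (13.5 against 13.2 CPM), and the other later libraries did not. Pdgfa, the classic epithelial ligand of PDGFRA, was at 6.04 CPM in Sox10 cells at E8.5, 14.8 and 15.5 CPM at E9.5 (control, Tbx1 null), 28.3 and 16.9 CPM in the E10.5 controls and 21.1 and 13.2 CPM in the E10.5 Tbx1 null libraries. In mesenchymal cells of the same libraries it was at 3.55, 5.94, 4.29, 7.64, 5.42, 6.18 and 6.40 CPM. It was higher in Sox10 cells in 7 of 7 libraries, by 1.70 to 3.71 times. The test over the 6 later libraries gave a log2 fold change of 1.58 ± 0.12 (adjusted p = 5.2e-05) and 2.15 ± 0.15 with the strict gate. In neural cells Pdgfa was at 18.4 CPM at E8.5, 15.8 and 17.4 CPM at E9.5, 9.88 and 6.67 CPM in the E10.5 controls and 12.9 and 7.06 CPM in the E10.5 Tbx1 null libraries. It was again above the mesenchymal level in 7 of 7 libraries, with a log2 fold change of 0.82 ± 0.23 (adjusted p = 0.020; 24.4% of all genes were called higher in neural cells, and 55.6% either way with the strict gate) and 1.25 ± 0.33 (adjusted p = 0.013) with the strict gate. The neural difference was not called in 4 alternatives. Among these were the 4 E10.5 libraries alone (0.44 ± 0.16, adjusted p = 0.074) and the 3 control libraries (0.60 ± 0.23, adjusted p = 0.12). Among neural cells Pdgfa was higher on the progenitor side than on the neuron side (Elavl3 and Elavl4 at least 2 UMIs) in each library of the 7, for example at 12.2 against 8.09 CPM in the first E10.5 control.

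Pdgfc, which encodes a latent ligand activated by proteolysis, was lower at E8.5 than at E10.5 in mesenchymal, Sox10 and neural cells. In Sox10 cells it was at 0.456 CPM at E8.5 (4 UMIs), 11.2 CPM in the control and 20.1 CPM in the Tbx1 null library at E9.5, 42.6 and 40.3 CPM in the E10.5 controls, and 82.8 and 46.2 CPM in the E10.5 Tbx1 null libraries. In mesenchymal cells it was at 0.381 CPM at E8.5, 1.69 and 2.41 CPM at E9.5, 32.0 and 26.4 CPM in the E10.5 controls and 18.1 and 32.0 CPM in the E10.5 Tbx1 null libraries. Sox10 cells were above mesenchymal cells in 7 of 7 libraries, by 1.20 to 8.34 times. The difference in the 6 later libraries was 1.53 ± 0.39 (adjusted p = 0.016) and 1.65 ± 0.55 (adjusted p = 0.046) with the strict gate. It was not called without the first Tbx1 null E10.5 library (adjusted p = 0.059) and in the control libraries alone (adjusted p = 0.18), and the strict value missed the threshold without any of 4 of the 6 libraries (adjusted p up to 0.14). In neural cells Pdgfc ranged from 1.92 CPM at E8.5 to 7.34 and 8.20 CPM at E9.5 and 10.5 to 18.6 CPM at E10.5. It was above the mesenchymal level at E8.5 and in both E9.5 libraries, and in 4 of 7 libraries in all (0.396 to 5.03 times). Over the 6 later libraries, where the direction differed by stage, no difference was called (-0.15 ± 0.53, adjusted p = 0.84). In the 4 E10.5 libraries alone Pdgfc was lower in neural cells (-1.02 ± 0.26, adjusted p = 0.024).

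**Figure D2:**
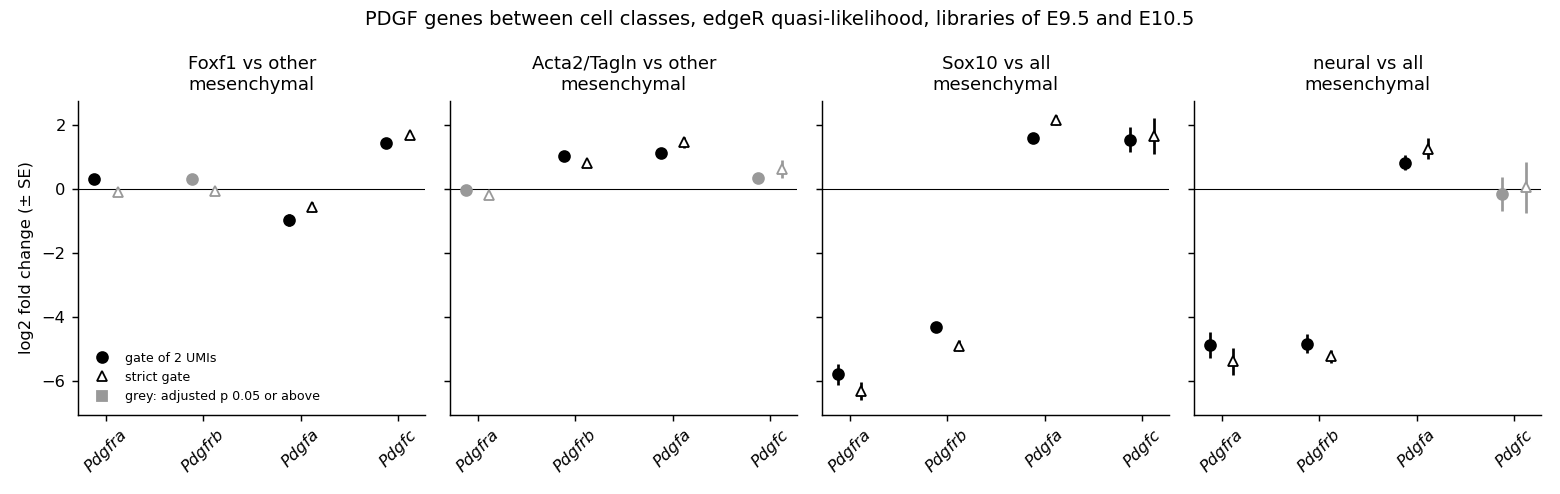
Log2 fold change (vertical axis, ± SE) of 4 PDGF genes for Foxf1 and Acta2/Tagln cells against other mesenchymal cells and for Sox10 and neural cells against all mesenchymal cells, with circles for the gate of 2 UMIs and triangles for the strict gate; grey marks adjusted p of 0.05 or above. The receptors fall by more than 4 log2 units in Sox10 and neural cells, Pdgfa rises in both, and Pdgfc rises in Foxf1 and Sox10 cells.

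Pdgfb, the ligand of both receptors that endothelium and platelets are known for, was scarce in this crest-lineage sort. It was found in 2, 6 and 4 cells of the E8.5 control, E9.5 control and E9.5 Tbx1 null libraries, in 18 and 26 cells of the E10.5 controls and in 17 and 26 cells of the E10.5 Tbx1 null libraries. The Acta2/Tagln cells held 11 and 15 of these cells in the E10.5 controls and 2 and 6 in the E10.5 Tbx1 null libraries, although they made up only 109, 181, 58 and 73 cells. Sox10 cells held 2 and 4 of them in the E10.5 controls and 7 and 3 in the Tbx1 null libraries, and neural cells 1 and 2, and 4 and 10. The Pdgfb level was 0.182 to 0.827 CPM in these Sox10 cells and 0.0213 to 0.206 CPM in the neural cells. In the Acta2/Tagln cells the Pdgfb level was 5.83 and 6.82 CPM in the E10.5 controls and 2.55 and 3.73 CPM in the E10.5 Tbx1 null libraries. In other mesenchymal cells it was 0.0161 to 0.191 CPM. The E9.5 values that follow are also of Acta2/Tagln cells. At E9.5 it was 3.33 CPM in the control (6 UMIs) and 0 UMIs in the Tbx1 null library, where 3 UMIs would make 1.60 CPM. Of the cells with Pdgfb, 0 to 5 per library had at least 2 UMIs of 5 endothelial genes, and 0 to 15 had Rgs5, a pericyte gene. Among the Acta2/Tagln cells themselves, 29 and 46 in the E10.5 controls and 7 and 16 in the E10.5 Tbx1 null libraries had at least 2 endothelial UMIs. With Acta2/Tagln cells that held cardiomyocyte or endothelial UMIs left out, Pdgfb was at 6.41 and 6.49 CPM in the E10.5 controls and 4.79 CPM in the second E10.5 Tbx1 null library. Pdgfb was too sparse for the low-count filter in the class comparisons and was tested in mesenchymal cells by genotype (-0.42 ± 0.65, adjusted p = 0.78) and by stage (2.40 ± 0.75, adjusted p = 0.055), neither of which passed. The stage difference was called in 5 alternatives (adjusted p down to 0.021).

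Within the mesenchyme, the Foxf1 cells held more Pdgfc than the class of other mesenchymal cells. At E10.5 Foxf1 cells held 83.4 and 68.6 CPM in the controls and 28.8 and 77.6 CPM in the Tbx1 null libraries, against 22.5 and 20.7, and 15.6 and 23.2 CPM in other mesenchymal cells. At E9.5 the levels were 3.02 and 3.72 CPM against 1.62 and 2.27 CPM. Acta2/Tagln cells held less Pdgfc than Foxf1 cells in these libraries, except in the E9.5 Tbx1 null library (4.26 against 3.72 CPM). Pdgfc was higher in Foxf1 cells in 6 of 6 libraries, by 1.64 to 3.71 times, and by 2.70 to 8.66 times with the strict gate. The log2 fold change was 1.43 ± 0.16 (adjusted p = 0.00031) and 1.68 ± 0.12 (adjusted p = 2.0e-05) with the strict gate, and it passed in each of the alternatives run. In this comparison 2285 of 13509 genes were called (16.9%), 7.06% as higher and 9.85% as lower, and with the strict gate 10.2%. After thinning, 36.4% and 29.0% of the Foxf1 cells of the E10.5 controls had a Pdgfc UMI, against 11.5% and 9.79% of other mesenchymal cells and 5.27% and 4.89% of neural cells.

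Pdgfa went the other way in the same cells. It was at 6.65 and 2.75 CPM in the Foxf1 cells of the E10.5 controls and 3.11 and 3.50 CPM in those of the Tbx1 null libraries, against 7.16, 5.48, 6.66 and 6.59 CPM in other mesenchymal cells. It was lower in 6 of 6 libraries, with a log2 fold change of -0.97 ± 0.19 (adjusted p = 0.0068) and -0.58 ± 0.15 (adjusted p = 0.040) with the strict gate. The strict value missed the threshold when any of 5 of the 6 libraries was left out (adjusted p up to 0.15). After thinning to 5000 UMIs per cell, with the gates applied again to the thinned counts, the difference was -0.14 ± 0.38 (adjusted p = 0.92). In the control libraries only it was -0.74 ± 0.24 (adjusted p = 0.15). The receptors gave different values with the gates. With the gate of 2 UMIs both were higher in Foxf1 cells in 6 of 6 libraries, Pdgfra by 1.06 to 1.61 times and Pdgfrb by 1.04 to 1.54 times, and Pdgfrb was called in 5 alternatives (adjusted p down to 0.027). The log2 fold change of Pdgfra was 0.29 ± 0.09 (adjusted p = 0.043) but -0.10 ± 0.06 with the strict gate (adjusted p = 0.30), and Pdgfrb was at 0.30 ± 0.10 (adjusted p = 0.064) and -0.07 ± 0.07 (adjusted p = 0.60). The Pdgfra call was lost in 8 alternatives, and its sign changed in 2 more. The neuron list summed to 4.94 to 160 CPM in Foxf1 cells and to 18.7 to 807 CPM in all mesenchymal cells, and its part in the receptor values was not tested.

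**Figure D3:**
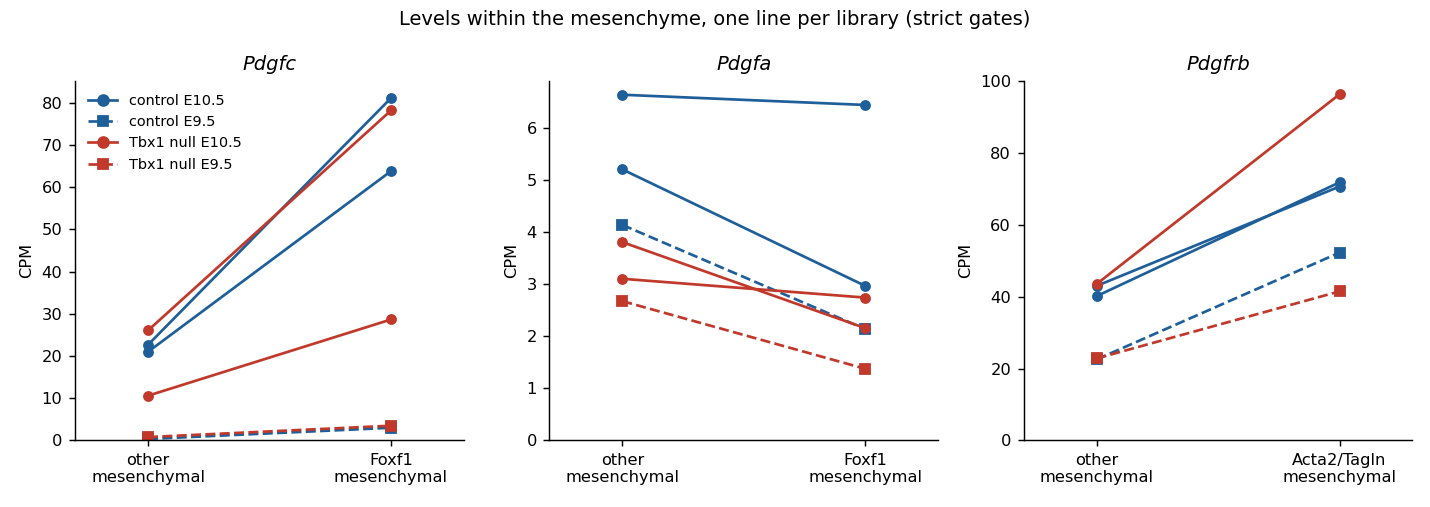
CPM of Pdgfc and Pdgfa in other and Foxf1 mesenchymal cells and of Pdgfrb in other and Acta2/Tagln mesenchymal cells under the strict gate, with 1 line per library (blue control, red Tbx1 null, dashed E9.5). Every Pdgfc and Pdgfrb line rises and every Pdgfa line falls; the Tbx1 null E10.5 library with the lowest Foxf1 level of Pdgfc is the first.

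The Acta2/Tagln cells were set apart by Pdgfrb and Pdgfa. Pdgfrb was at 48.3 and 39.4 CPM in the E9.5 control and Tbx1 null libraries, 70.2 and 73.0 CPM in the E10.5 controls and 79.8 and 68.2 CPM in the E10.5 Tbx1 null libraries, which lay above other mesenchymal cells by 1.88 to 2.62 times in 6 of 6 libraries. The log2 fold change was 1.02 ± 0.09 (adjusted p = 1.4e-05) and 0.82 ± 0.09 (adjusted p = 0.00011) with the strict gate, which left 5 libraries with 50 such cells. Pdgfa was at 15.0 and 7.45 CPM at E9.5, 21.9 and 13.9 CPM in the E10.5 controls and 13.4 and 13.5 CPM in the Tbx1 null libraries, higher in 6 of 6 libraries by 1.65 to 3.06 times. Its log2 fold change was 1.12 ± 0.15 (adjusted p = 0.00029) and 1.45 ± 0.18 (adjusted p = 0.00023). With cells carrying cardiomyocyte or endothelial UMIs left out, the values were 1.02 ± 0.09 for Pdgfrb and 1.23 ± 0.22 for Pdgfa. Pdgfra did not pass (-0.03 ± 0.07, adjusted p = 0.77), nor did Pdgfc (0.35 ± 0.14, adjusted p = 0.076; 0.61 ± 0.27, adjusted p = 0.11 with the strict gate, where it was higher in 5 of 5 libraries by 1.07 to 5.16 times). The Pdgfc difference was called in 5 alternatives, with the lowest adjusted p of 0.0069 at a cut of 5 Acta2 and Tagln UMIs (0.51 ± 0.12), and was at -0.30 ± 0.35 after thinning. Of all genes 39% were called in this comparison, 2282 as higher (16.9%) and 2972 as lower (22%), with 37.6% called under the strict gate. The numbers were 2868 and 2126 when libraries were scaled by total UMIs instead of TMM factors. An epithelial list (Epcam, Cdh1, Krt8, Krt18, Cldn6) summed to 202 to 429 CPM in these cells against 15.4 to 52.4 CPM in all mesenchymal cells, and its part in the Pdgfa values was not tested.

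With stage, Pdgfc and Pdgfra rose, Pdgfc by more, and the other members were not called. Between E9.5 and E10.5, with genotype as a covariate, its log2 fold change in mesenchymal cells was 3.20 ± 0.33 (adjusted p = 0.0052), and 4.60 ± 0.47 (adjusted p = 0.0013) with the strict gate, under which its level went from 0.544 and 1.09 CPM to between 15.2 and 39.9 CPM. Pdgfra rose by 0.74 ± 0.20 (adjusted p = 0.039; 0.94 ± 0.17 and adjusted p = 0.0067 with the strict gate). Pdgfrb was at 0.34 ± 0.16 (adjusted p = 0.15; 0.52 ± 0.17 and adjusted p = 0.0503) and Pdgfa at -0.17 ± 0.22 (adjusted p = 0.59; -0.03 ± 0.22). In this comparison 3811 of 16442 genes were called (23.2%), 11.2% as higher and 11.9% as lower, and 29.7% with the strict gate. Scaling mattered here: with total UMIs in place of TMM factors the median of all genes moved from 0.07 to 0.58, 5785 genes were called higher and 548 lower (1849 and 1962 with TMM), and the values were 1.25 ± 0.19 for Pdgfra, 0.85 ± 0.15 for Pdgfrb and 0.34 ± 0.23 for Pdgfa. The levels in CPM carry the same shift. With a single library per genotype at E9.5, the calls depended on it: without the control E9.5 library edgeR called 0 genes (4222 at an unadjusted p under 0.05), and Pdgfra was at 0.45 ± 0.27 (adjusted p = 0.35) and Pdgfc at 2.79 ± 0.39 (adjusted p = 0.063). The Pdgfra call also went without the E9.5 Tbx1 null library (1.04 ± 0.28, adjusted p = 0.091), without either E10.5 control and without the first E10.5 Tbx1 null library (adjusted p = 0.051 to 0.094). With the strict gate Pdgfc stayed called without the control E9.5 library (4.07 ± 0.58, adjusted p = 0.028) and Pdgfra did not (0.96 ± 0.27, adjusted p = 0.095).

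**Figure D4:**
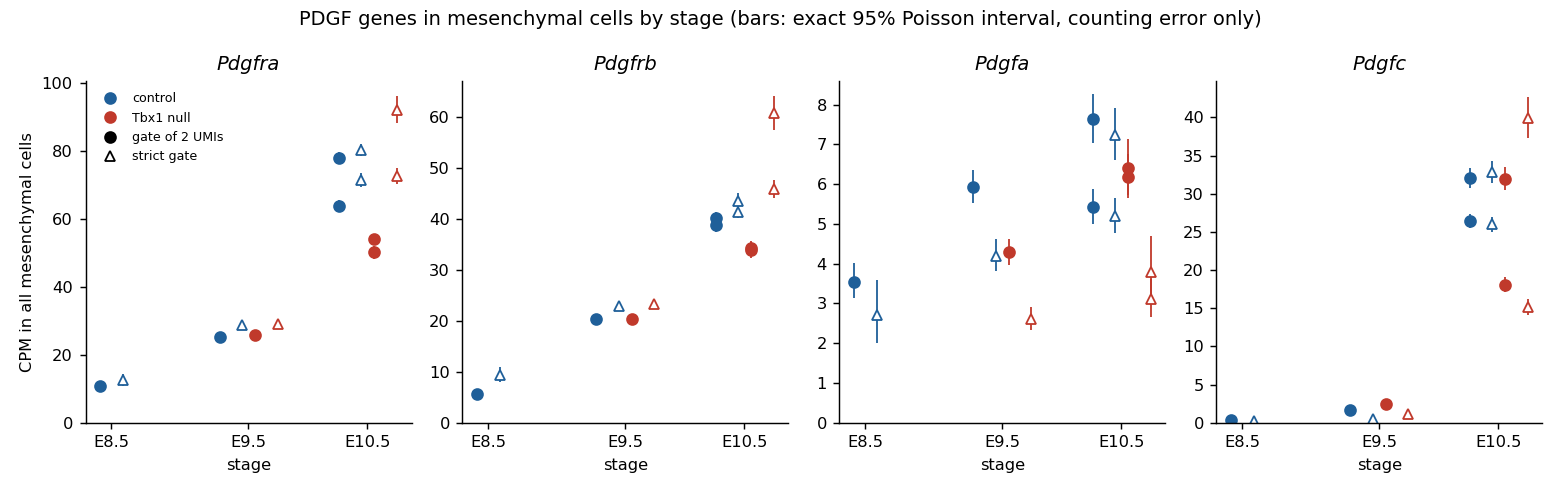
CPM of 4 PDGF genes in all mesenchymal cells (vertical axis) by stage, with circles for the gate of 2 UMIs, triangles for the strict gate, blue for control, red for Tbx1 null and bars for exact 95% Poisson intervals. Pdgfc goes from at most 2.41 CPM at E9.5 to 15.2 CPM or more at E10.5, Pdgfra from below 30 CPM to above 50 CPM, and Pdgfa stays below 8 CPM.

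The comparison the study was built on, Tbx1 null against control at E10.5, called no member in any class with either gate. With 2 libraries per genotype the lack of a call does not show that levels were equal. In mesenchymal cells edgeR called 19 of 15933 genes (0.119%) with the gate of 2 UMIs and 23 of 15124 (0.152%) with the strict gate, whereas 2402 passed an unadjusted p under 0.05 with the first gate and DESeq2 called 726 (no member among them). In mesenchymal cells Pdgfra was at 54.0 and 50.2 CPM in the Tbx1 null libraries, below both controls (63.8 and 78.2 CPM), with a log2 fold change of -0.63 ± 0.23 (adjusted p = 0.28). With the strict gate its levels were 72.7 and 92.2 CPM against 71.4 and 80.3 CPM, and the difference was -0.02 ± 0.21 (adjusted p = 0.98). Pdgfrb moved from -0.40 ± 0.20 (adjusted p = 0.40) to 0.19 ± 0.21 (adjusted p = 0.74) between the gates. The lower receptor levels of the Tbx1 null libraries were seen with the gate of 2 UMIs and not with the strict gate. In other mesenchymal cells, where 22 of 15524 genes (0.142%) and 10 of 14540 with the strict gate (0.0688%) were called, Pdgfra went from -0.74 ± 0.23 to 0.05 ± 0.22 between the gates. With total UMIs as scaling the median of all genes moved from -0.02 to 0.17, and Pdgfra was at -0.45 ± 0.19.

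For the ligands the gates gave other values. Pdgfa in mesenchymal cells was at 6.18 and 6.40 CPM in the Tbx1 null and 7.64 and 5.42 CPM in the control libraries (-0.24 ± 0.26, adjusted p = 0.69). With the strict gate it was at 3.11 and 3.78 CPM against 7.24 and 5.20 CPM, a log2 fold change of -0.99 ± 0.28 that was not called (adjusted p = 0.31). Pdgfc in mesenchymal cells was at -0.43 ± 0.26 (adjusted p = 0.47) and -0.27 ± 0.37 (adjusted p = 0.80), the latter called without the second Tbx1 null library (-0.98 ± 0.23, adjusted p = 0.046, on the spread of the controls alone). Calls made without a Tbx1 null library of E10.5 compare the 1 that is left with 2 controls, so that their spread comes from the controls and the lone library is assumed to vary like them. The spread of Pdgfc lay within the Tbx1 null group. In Foxf1 cells the first Tbx1 null library held 28.8 CPM and the second 77.6 CPM, with the controls at 83.4 and 68.6 CPM. The log2 fold change there was -0.59 ± 0.37 (adjusted p = 0.56; 7 of 12654 genes called, 0.0553%, and 0 of 12462 with the strict gate, where 1292 passed an unadjusted p under 0.05 and DESeq2 called 67). With the spread of the controls alone it was -1.42 ± 0.28 without the second Tbx1 null library and -0.07 ± 0.26 without the first. The latter is also the comparison within reagent version 3.1. The study lists the embryos of the first Tbx1 null library with fewer somites than those of the second and of both controls. Genotype, reagent version and somite stage therefore cannot be told apart in that library. In Sox10 cells, where 2 of 12665 genes were called (0.0158%), Pdgfc was at 82.8 and 46.2 CPM in the Tbx1 null and 42.6 and 40.3 CPM in the control libraries (0.61 ± 0.29, adjusted p = 0.51), and the first library again stood apart (0.11 ± 0.22 without it). With the strict gate, where 0.211% of genes were called, the value was 0.74 ± 0.27 (adjusted p = 0.31), and it was 1.02 ± 0.24 without the second Tbx1 null library. With the replicate numbers as a block the strict value was called (0.67), though these numbers were not shown to pair the libraries. In Acta2/Tagln cells, where 65 of 10479 genes were called (0.62%, and 0.1% with the strict gate and 3 libraries), the members lay between -1.03 ± 0.54 for Pdgfb and 0.24 ± 0.29 for Pdgfc. In neural cells edgeR called 0 of 15306 genes (610 at an unadjusted p under 0.05, and 46 by DESeq2), and Pdgfrb had the largest value (1.26 ± 0.46, adjusted p = 0.93) at levels of 0.660 to 2.25 CPM.

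The genotype effect was also compared between Foxf1 and other mesenchymal cells of E10.5. With the gate of 2 UMIs it differed for both receptors, by 0.53 ± 0.08 for Pdgfra (adjusted p = 0.012) and 0.63 ± 0.09 for Pdgfrb (adjusted p = 0.0094), in a test that called 490 of 14798 genes (3.31%). Under the strict gate the differences were -0.15 ± 0.10 and -0.004 ± 0.15 and 1.31% of genes were called. Pdgfra levels under the first gate were 69.0 and 73.9 CPM in Tbx1 null Foxf1 cells against 67.6 and 81.9 CPM in controls, and 50.9 and 45.9 CPM against 63.1 and 77.6 CPM in other mesenchymal cells. The neuron list of the latter summed to 166 and 959 CPM in the Tbx1 null libraries and to 90.1 and 40.3 CPM in the controls.

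**Figure D5:**
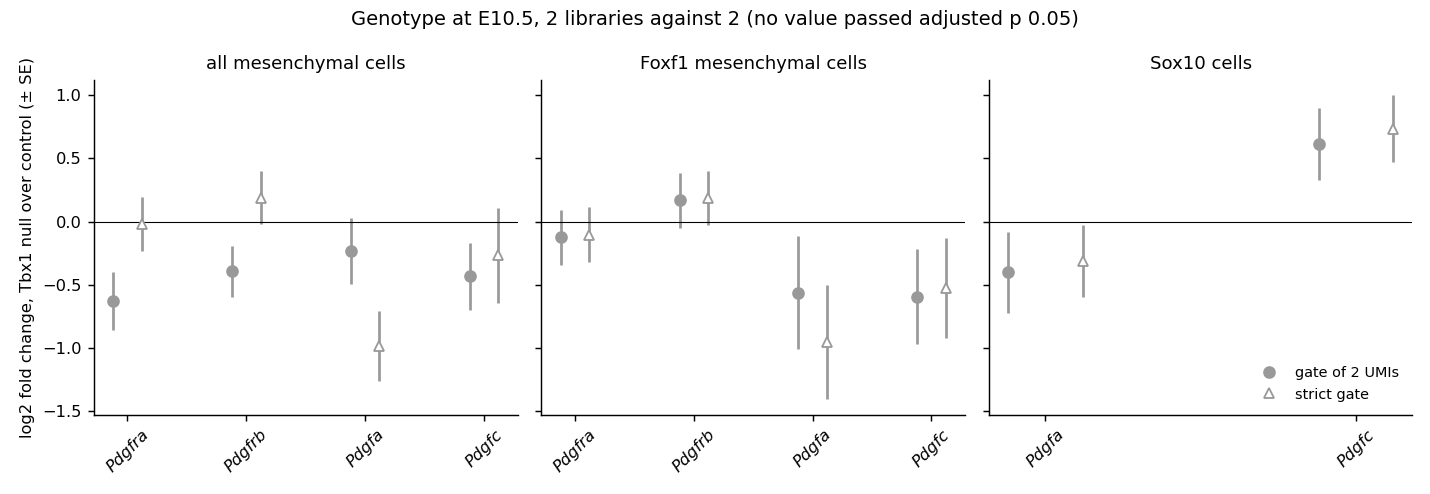
Log2 fold change (vertical axis, ± SE) of Tbx1 null over control at E10.5, 2 libraries against 2, in all mesenchymal, Foxf1 and Sox10 cells, with circles for the gate of 2 UMIs and triangles for the strict gate. No value passed an adjusted p of 0.05, and in all mesenchymal cells the receptors move from below 0 to about 0 or above under the strict gate.

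At E9.5, with 1 library per genotype, the values are set side by side without a test, and intervals cover counting error only. In mesenchymal cells Pdgfra and Pdgfrb were nearly equal in both libraries, at log2 ratios of 0.04 (95% interval -0.02 to 0.11) and 0.01 (-0.06 to 0.08). Pdgfa was lower in the Tbx1 null library, at 4.29 against 5.94 CPM (-0.47, -0.62 to -0.32; -0.69 with the strict gate). Pdgfc was higher, at 2.41 against 1.69 CPM (0.51, 0.27 to 0.75; 1.00 with the strict gate, from 141 and 55 UMIs). In Sox10 cells Pdgfc was at 20.1 against 11.2 CPM (0.84, 0.53 to 1.16), beyond the 1.5-fold mark that 278 of 6928 genes passed (4.01%). That mark was counted only over genes with at least 10 CPM in either library. In mesenchymal cells 3% of these genes passed it, and 3.02% with the strict gate. Pdgfa and Pdgfc lay below this floor in mesenchymal cells with both gates, so these shares do not cover them. The Pdgfa difference in mesenchymal cells had the same sign at both stages with either gate, untested at E9.5 and not called at E10.5. The test of genotype by stage called 1 of 17268 genes (0.00579%) and no member.

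The family's other genes in the lists were Pdgfd and Pdgfrl. Pdgfd, a ligand of PDGFRB, lay between 0.397 and 1.40 CPM in mesenchymal cells and was called in none of the comparisons described here. Pdgfrl, which encodes a receptor-like protein without a kinase domain, was at 1.06 to 1.43 CPM at E8.5 and E9.5 and at 8.70 to 19.4 CPM at E10.5 in mesenchymal cells, a rise of 2.87 ± 0.34 (adjusted p = 0.0060). Like the receptors it was lower in Sox10 (-2.60 ± 0.27, adjusted p = 0.00027) and neural cells (-3.30 ± 0.61, adjusted p = 0.0034).

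The lists of other pathway genes were counted in the same fits. Genes that process or bind PDGF ligands were higher in Acta2/Tagln cells, 6 of 7 tested and 0 lower (16.9% and 22% of all genes), with a median log2 fold change of 1.84 against -0.09 over all genes. They included Sparc (3.23 ± 0.16), which binds PDGF, the PDGF-binding co-receptor gene Nrp1 (2.18 ± 0.16), perlecan (Hspg2, 1.86 ± 0.18) and the proprotein convertase Pcsk5 (1.84 ± 0.18). In Foxf1 cells 2 of 7 were higher (Nrp1 0.43 ± 0.11 and Furin 0.40 ± 0.10; 7.06% of all genes), and with the strict gate 3 of 7 (5.11% of all genes), among them Plat (0.51), the activator of PDGF-C, and Sparc (0.79). With stage Plat (1.45 ± 0.27) and Sparc (1.27 ± 0.27) rose, 2 of 8 (11.2% of all genes; 7 of 8 with total UMIs as scaling, where 35.2% of all genes were called higher and 3.33% lower).

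Genes known to be induced by PDGF, many of which are immediate early genes that other signals and cell dissociation also induce, were higher in Acta2/Tagln cells in 9 of 15 and lower in 0, against 16.9% and 22% of all genes. Fos (2.63 ± 0.29), Junb (1.60 ± 0.33), Egr1 (1.48 ± 0.29) and Jun (1.34 ± 0.13) led them. In Foxf1 cells 3 were higher and 5 lower (7.06% and 9.85% of all genes), with Egr1 (-1.39 ± 0.20), Myc (-1.09 ± 0.13), Ier3 (-0.82 ± 0.16) and Schip1 (-0.78 ± 0.10) the largest, and with the strict gate 0 were higher and 5 lower (5.11% and 5.14%). Negative regulators of receptor tyrosine kinase signalling (Sprouty and Lrig genes, phosphatases and a Cbl gene) were lower in Foxf1 cells in 3 of 10 tested and higher in 0 (9.85% and 7.06% of all genes): Spry4 (-1.05 ± 0.14), Dusp6 (-0.77 ± 0.09) and Spry2 (-0.55 ± 0.09), all of which stayed lower with the strict gate. They also fell with stage in 6 of 10 (11.9% of all genes), led by Spry4 (-2.14 ± 0.34), Spry1 (-1.49 ± 0.44), Spry2 (-1.21 ± 0.30) and Dusp6 (-1.02 ± 0.29), with a list median of -0.78 against 0.07 over all genes; with total UMIs as scaling 1 of 10 was called lower (Spry4, -1.63 ± 0.33) and 3 higher (Lrig1, Lrig3 and Cblb; 3.33% and 35.2% of all genes), at a median of -0.27 against 0.58 over all genes. In neural cells 7 of 10 were lower and 1 higher (26.6% and 24.4% of all genes), with Spry4 (-3.96 ± 0.36), Spry1 (-3.79 ± 0.19) and Dusp6 (-3.33 ± 0.27) the largest differences.

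Of the receptor-proximal effectors, the adaptors, lipase and kinases that dock on active receptors, 4 of 18 rose with stage against 11.2% of all genes (Stat3 1.05 ± 0.24, Pik3r1 1.04 ± 0.25, Plcg1 0.70 ± 0.21 and Src 0.68 ± 0.19) and 0 fell. With total UMIs as scaling 13 rose (35.2% of all genes) at a list median of 0.79 against 0.58 over all genes. In Acta2/Tagln cells 6 of 18 were higher (16.9% of all genes), among them Pik3cb (1.5 ± 0.28), and in Foxf1 cells 4 (Nck2 0.41 ± 0.07, Shc1, Plcg1 and Ptpn11; 7.06% of all genes). In Sox10 cells 2 were higher and 3 lower, near the 15% and 19% of all genes, and in neural cells 2 and 7 (24.4% and 26.6%). Other receptor tyrosine kinases of mesenchyme gave a scale for Pdgfra and Pdgfrb. With stage 5 of 10 rose (11.2% of all genes), Axl by 2.73 ± 0.31, Met by 1.92 ± 0.40, Ddr1 by 1.68 ± 0.44 and Ddr2 by 1.55 ± 0.33 (9 of 10 with total UMIs as scaling, against 35.2% of all genes). In Sox10 cells the collagen receptor gene Ddr2 was lower than in mesenchymal cells, with the largest difference of the list (-6.14 ± 0.26). In neural cells it was at -6.33 ± 0.46. In the genotype comparison at E10.5 in mesenchymal cells no gene of these lists was called, with either gate.

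The receptors shared their pattern over libraries and classes. Over 40 profiles (a class in a library, with cells of the same library sharing depth and chemistry), the log2(CPM + 1) of Pdgfra correlated best with Fli1 (r = 0.968), Pdgfrb (0.957) and Twist2 (0.956) among 7812 genes, and that of Pdgfrb with Cd248 (0.979), Pcolce (0.974) and Fli1 (0.971). Pdgfa was most like Tmem237 (0.802), Itga6 (0.751) and Fam181b (0.716), Pdgfb most like Igfbp7 (0.910), Tbx20 (0.909) and Pdlim3 (0.898), and Pdgfc most like Ldhb (0.886), Ak3 (0.882) and Sfswap (0.879). The r of Pdgfra with its ligand genes was -0.49 for Pdgfa, 0.36 for Pdgfb and 0.10 for Pdgfc. In single mesenchymal cells thinned to 5000 UMIs, both receptors were detected together in 72 to 380 cells of the libraries from E9.5 on. This was 1.08 to 1.79 times the number their separate shares give. The E10.5 Tbx1 null libraries had the highest ratios (1.35 and 1.79), against 1.08 to 1.26 in the other libraries from E9.5 on. The cells are those of the gate of 2 UMIs, which held more neuron transcripts in these Tbx1 null libraries. The part of such cells in the ratios was not tested. For Pdgfra with Pdgfa the same ratio was 0.45 to 0.97, but up to 1.17 after thinning to 3000 UMIs and up to 1.05 without thinning. These are descriptions of cells within a library, with few UMIs of each gene per cell.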

How the data were processed

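EGFP-positive, DAPI-negative cells sorted from pooled embryos were profiled with 10x 3′ kits (version 2 at E8.5, 3 in the Tbx1 null libraries of E9.5 and of E10.5 replicate 1, 3.1 in the others). Per the labels and the submitters' processing notes, the authors made the deposited UMI counts with Cell Ranger 6.0.1 on mm10; these unnormalised counts per gene and barcode are the unit used here. Of the barcodes deposited (5987 to 12047 per library, 140264662 to 234844769 UMIs in total), barcodes in which 1000 genes or more were detected and mitochondrial transcripts made up no more than 10% of UMIs were kept, and the highest Scrublet scores (scanpy 1.11.5) were removed as doublets at 0.8% per 1000 barcodes.

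Cells were classed by gates on 12 genes that are not members, and UMIs were summed per library and class where at least 50 cells were present. Because tags are 3′ ends, levels are compared within a gene. Sums were tested with edgeR 4.0.16 (TMM factors, filterByExpr, quasi-likelihood test, Benjamini-Hochberg adjustment over all genes tested, called under 0.05) in R 4.3.3, with DESeq2 1.42.0 as an alternative. Class comparisons used the library as a block over the 6 libraries of E9.5 and E10.5. At E9.5 the genotypes were set side by side with exact 95% intervals that cover counting error only and a pseudocount of 0.5 UMIs. Shares of cells were taken after thinning each cell to 5000 UMIs, without shallower cells (2 to 175 mesenchymal cells per library). The classes for these shares were set on full counts. Fits and E9.5 ratios on thinned counts applied the gates again to those counts, so that the classes changed along with the depth. The fitting scripts were tested on simulated data. There most planted changes were called in the Foxf1 class fit, but most went uncalled in the stage fit and in the E10.5 genotype fit of mesenchymal cells.

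The members and gene lists were chosen with earlier results of these data known. Named genes are the 5 members, Pdgfd and Pdgfrl, up to 4 called genes with the largest change from each other list, the 3 genes most correlated with each member among those with a mean of at least 10 CPM, and markers of summed lists. The strict gates, the fit without cardiomyocyte or endothelial cells and the scaling by total UMIs were chosen after seeing the data. Promoters of the other members and protein sequences were not used here. Groups follow the titles; the replicate numbers of E10.5 come from the labels. The summed marker list of the Sox10 class is not reported here.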

Additional observations from a re-analysis of the deposited data

Results flagged for a closer look

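The genotype effect at E10.5 differed between Foxf1 and other mesenchymal cells for both receptors in a direct test with the library as a block (edgeR quasi-likelihood test, 4 libraries). The difference was 0.53 for Pdgfra (adjusted p = 0.012) and 0.63 for Pdgfrb (adjusted p = 0.0094), each on the log2 scale and counted as the Foxf1 effect minus the effect in other cells. Pdgfrb was at 47.1 and 45.9 CPM in Tbx1 null Foxf1 cells against 39.0 and 40.6 CPM in controls, and at 30.5 and 29.9 CPM against 37.3 and 38.8 CPM in other mesenchymal cells. Under the strict gates neither difference was called, at -0.15 (adjusted p = 0.56) and -0.0039 (adjusted p = 1), and without the first Tbx1 null library the strict value of Pdgfra was at -0.36 (adjusted p = 0.038, with the lone Tbx1 null library assumed to vary like the 2 controls). Cells that only just passed the mesenchymal gate, with 2 or 3 UMIs, made up 695 of 3209 and 797 of 2219 cells in the Tbx1 null libraries and 434 of 3361 and 535 of 6741 in the controls. Their part in the difference was not tested beyond these gates.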

How the results depend on the processing

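Of the members' 654 values under alternatives to the gate of 2 UMIs, 573 kept their direction and side of the threshold. Another 29 lost and 21 gained a call, and 31 changed sign. For 133 alternatives to the strict values the numbers were 109, 13, 8 and 3. Strict values of the genotype by class test with a library left out, such as that of Pdgfra given above, were not counted. The cause was not tested unless stated. Without a Tbx1 null library of E10.5, genotype values at that stage take their spread from the controls. Depth limits the members with few UMIs, above all Pdgfb.

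Counts of all genes called moved as well, as given further below, and the counts of members stand beside them. With stage and total UMIs 35.2% of all genes were called higher and 3.33% lower. For genotype by class under the strict gates 1.31% of all genes were called. Counts of members called moved as follows. In Foxf1 against other cells 1 member was called after thinning to 5000 UMIs per cell and 1 in the control libraries only. With stage 1 member was called with DESeq2 size factors and 4 with total UMIs, and leaving out a library gave 0 to 2. For genotype in Foxf1 cells leaving out a library gave 0 to 1. For genotype by class 0 members were called after thinning, at a gate of 4 UMIs and under the strict gates, 1 with Sox10 cells left out, and leaving out a library gave 1 to 3.

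These values changed sign. For genotype in mesenchymal cells Pdgfrb was at 0.048 after thinning and 0.19 under the strict gates, and Pdgfa at 0.03 with filters of 200 genes and 5% mitochondrial UMIs. In Acta2/Tagln cells Pdgfrb was at 0.043 with total UMIs, 0.13 at a gate of 4 UMIs, 0.12 without Sox10 cells, 0.35 under the strict gates and -0.15 to 0.059 with a library left out. In Foxf1 cells Pdgfa was at -1.10 to 0.17 with a library left out, in neural cells at -0.33 to 0.58, and in Sox10 cells at 0.085 after thinning. In Foxf1 against other cells Pdgfra was at -0.022 and Pdgfrb at -0.16 after thinning, and at -0.10 and -0.071 under the strict gates. In Acta2/Tagln against other cells Pdgfra was at 0.058 with total UMIs and 0.0024 in the control libraries only, and Pdgfc at -0.30 after thinning. In neural cells Pdgfc was at 0.046 at a gate of 4 UMIs, 0.050 under the strict gates and -0.56 to 0.14 with a library left out. With stage Pdgfa was at 0.34 with total UMIs. For genotype by class Pdgfra was at -0.34 after thinning and -0.15 under the strict gates, and Pdgfrb at -0.0039. For genotype by stage Pdgfra was at 0.052 under the strict gates, and Pdgfa at -0.41 after thinning and -0.21 under the strict gates. Strict values of Pdgfc for genotype were -0.98 to 0.23 in mesenchymal cells and -1.37 to 0.017 in Foxf1 cells with a library left out, and 0.090 in mesenchymal cells of 6 libraries with stage as a covariate.

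At E9.5 Pdgfra was at -0.035 and Pdgfc at 0.96 after thinning, and under the strict gates Pdgfa was at -0.69 and Pdgfc at 1.00. Without thinning the median percent of mesenchymal cells with a UMI was 45.1% for Pdgfra, 40.0% for Pdgfrb, 10.9% for Pdgfa, 0.187% for Pdgfb and 27.7% for Pdgfc; at 3000 UMIs Pdgfa was at 1.67%. The median CPM of Pdgfa was 3.78 under the strict gates.

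The replicate numbers of the E10.5 libraries were not shown to pair them: same-numbered libraries correlated in their deviations at 0.0175 to 0.461 over classes, with only 2 pairs. With the replicate block the calls for genotype went from 19 to 72 genes in mesenchymal cells, from 7 to 178 in Foxf1 cells, from 65 to 383 in Acta2/Tagln cells, from 2 to 259 in Sox10 cells and from 0 to 345 in neural cells. No member was called with the block except Pdgfc in Sox10 cells under the strict gates (0.67, adjusted p = 0.026).

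Counts of all genes called also moved: over the alternatives other than the leave-outs genotype in mesenchymal cells gave 0 to 1419 genes, in Foxf1 cells 0 to 437, in Acta2/Tagln cells 1 to 383, in Sox10 cells 0 to 321 and in neural cells 0 to 345. Foxf1 against other cells gave 682 to 2646, Acta2/Tagln 2438 to 5622, Sox10 1542 to 5859, neural 3664 to 8264, stage 3860 to 6333, genotype by class 175 to 1336 and genotype by stage 1 to 372. With total UMIs under the strict gates Foxf1 calls split 802 higher and 452 lower (625 and 629 with TMM), Acta2/Tagln 2843 and 1633 (2201 and 2714) and neural 4723 and 3475 (3795 and 4434). Acta2/Tagln genotype could not be thinned, for too few cells, and at a cut of 20 UMIs that comparison had 3 libraries and Acta2/Tagln against other cells 4 (2 after thinning). Genotype by stage could not be estimated without an E9.5 library.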

Other observations

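Other mesenchymal cells under the strict gates were also divided, in each library from E9.5 on with enough cells, into cells with at least 2 UMIs of a gene that marks a region of the arches and cells with 0 UMIs of it. This division was made after the data were seen and is given as a description, with no test, since the cells share their libraries. Pdgfc was higher in cells with Hand2, a gene of the distal arches and outflow region, in 6 of 6 libraries, by 2.40 to 4.01 times. It was lower in cells with Barx1 in 5 of 5 libraries (0.471 to 0.699 times) and in cells with Hoxa2, which marks the second arch and those behind it, in 6 of 6 (0.444 to 0.811 times). At E9.5 these directions rest on few Pdgfc UMIs: 3 in cells with Hoxa2 against 23 in those without in the control and 9 against 78 in the Tbx1 null library, 7 against 21 and 36 against 50 for Barx1, and 12 against 18 and 42 against 42 for Hand2. Pdgfa was lower in the cells with Hand2 in 6 of 6 libraries, at 0.387 to 0.923 times.

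The receptors showed other regional differences. Pdgfra was higher in cells with Hoxb3, a gene of the posterior arches, in 6 of 6 libraries (1.14 to 2.00 times) and in cells with Meox1 in 6 of 6 (1.03 to 1.70 times). Pdgfrb was lower in cells with Barx1 in 5 of 5 libraries (0.646 to 0.872 times) and higher in cells with Meox1 in 6 of 6 (1.05 to 1.74 times).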
